A study of Mus musculus with 6 samples.

Results

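Zic1, Zic2, Zic4 and Zic5 encode transcription factors of the Zic family and were read in every library of a comparison between mice lacking a large enhancer of Atoh7 and wild-type mice. They were picked out by gene symbol and are 4 of the 24411 gene symbols in the deposited tables. Other Zic genes were not analysed here. RNA came in bulk from tissue taken at postnatal day 18, with 3 libraries labelled Atoh7 Large Enhancer KO (enhancer KO) and 3 labelled WT. The protocol text names cerebellum, and the source and tissue fields name retina. The labels give no strain, no sex and no extent of the deletion, and they call the libraries independent replicates without tying any to an animal, so p-values measure the spread between these samples.

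Zic proteins bind DNA through C2H2 zinc fingers that resemble those of the Gli proteins, the effectors of hedgehog signalling. In the cerebellum they are known from granule neurons and their precursors, in which mouse Zic1 and Zic2 act in proliferation and later maturation, and Zic genes are also expressed in the meninges. Mice without Zic1 have a small, abnormally folded cerebellum, and in people deletion of the ZIC1 and ZIC4 pair has been linked to Dandy-Walker malformation. In the mouse retina Zic2 is known to direct ganglion cell axons that do not cross at the optic chiasm.

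The genes lie as neighbouring pairs on opposite strands. In GENCODE release M21 on mm10, Zic1 spans chr9:91358058-91365810 on the minus strand and Zic4 spans chr9:91362413-91389348 on the plus strand, and their annotated spans overlap by 3398 bases. Zic5 spans chr14:122456795-122465677 on the minus strand and Zic2 chr14:122475435-122479852 on the plus strand, with 9757 bases between them, so that both are transcribed away from the gap. No stretch of 50 bases in any annotated transcript of 1 of these genes occurred in a transcript of another of them. RefSeq (GRCm38.p6) promoter windows, from 250 bases before to 50 after the start, matched 3 of the 4 genes. None matched Zic2, which was also called lower. The windows are shown so that the start regions of these genes can be set beside each other. Zic1 and Zic4 were called lower and Zic5 was not, and whether the windows bear on these calls was not tested. Capitals mark CCAAT and GGGCGG on either strand, the only matches found among the motifs searched. The Zic1 window is chr9:91365719-91366018 (minus strand), the Zic4 window chr9:91368722-91369021 (plus strand) and the Zic5 window chr14:122465609-122465908 (minus strand).
Zic1: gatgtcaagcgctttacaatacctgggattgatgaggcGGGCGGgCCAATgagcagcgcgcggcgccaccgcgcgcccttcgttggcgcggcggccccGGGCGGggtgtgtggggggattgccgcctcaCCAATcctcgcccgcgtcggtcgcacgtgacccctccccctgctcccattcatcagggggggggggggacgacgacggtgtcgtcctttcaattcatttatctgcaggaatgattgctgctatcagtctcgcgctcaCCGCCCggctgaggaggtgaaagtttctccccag
Zic4: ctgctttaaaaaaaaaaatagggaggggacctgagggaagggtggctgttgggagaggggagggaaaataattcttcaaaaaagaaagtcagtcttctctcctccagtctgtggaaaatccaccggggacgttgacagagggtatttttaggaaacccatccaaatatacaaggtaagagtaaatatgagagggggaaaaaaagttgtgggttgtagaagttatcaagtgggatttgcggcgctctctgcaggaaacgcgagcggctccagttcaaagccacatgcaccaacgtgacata
Zic5: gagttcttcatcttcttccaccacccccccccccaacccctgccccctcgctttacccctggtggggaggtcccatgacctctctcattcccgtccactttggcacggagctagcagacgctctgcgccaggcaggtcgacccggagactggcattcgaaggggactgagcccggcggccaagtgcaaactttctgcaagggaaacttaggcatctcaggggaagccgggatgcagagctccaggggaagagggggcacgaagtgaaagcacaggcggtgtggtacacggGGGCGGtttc
The Zic1 window held 2 CCAAT and 3 GGGCGG matches and was 65.3% G and C, with 31 CpG dinucleotides. The Zic5 window held 1 GGGCGG match and was 62.7% G and C with 15 CpG dinucleotides, and the Zic4 window held neither motif and was 46.0% G and C with 8. Over all 32851 windows of this length the medians were 52.7% G and C and 7 CpG dinucleotides, 37.4% held CCAAT and 35.7% held GGGCGG. The letters CAGCTG (an E-box), CAGCAGG (a Zic core) and GACCACCCA (a Gli site) were in none of these windows on either strand. They were in 16.3%, 10.5% and 0.253% of all windows. The RefSeq starts of Zic1 and Zic4 were 3204 bases apart. The RefSeq start of Zic4, at chr9:91368972, lies inside its GENCODE span. The overlap given above and this distance thus rest on different annotated starts of Zic4.

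Total reads ranged from 57466712 to 65530873 in enhancer KO and from 59850539 to 63545272 in WT, and reads in genes from 36849747 to 40858310 in enhancer KO and from 22812075 to 33076111 in WT. Reads outside annotated exons on the strand counted made up 16.8% to 18.2% of all reads in enhancer KO and 31.1% to 34.1% in WT. That share also holds reads opposite to an exon. Summed levels of the granule neuron and Purkinje cell markers were at least 2948 CPM (read counts divided by library size, which was scaled by the trimmed mean of M-values) in each library, against at most 14.4 CPM for 12 photoreceptor genes, of which Arr3 had no reads. Atoh7 had 28, 33 and 29 reads in enhancer KO and 63, 42 and 72 in WT, and fell (log2 fold change -1.41 ± 0.205, SE; edgeR adjusted p = 0.000353). Xist, expressed from the inactive X chromosome, was at 1054 CPM in WT replicate 1 and at no more than 1.37 CPM in the other libraries, and the Y-linked gene Ddx3y had no reads in that library and at least 91.4 CPM in the others. The Xist and Ddx3y values are those of a female sample in WT replicate 1 and of male samples elsewhere, though the labels give no sex. WT replicate 2 had 12.9% of its gene reads on the ribosomal RNA gene Rn45s, against 1.51% to 3.02% elsewhere. Unmapped reads made up 20.4% of all reads in that library, against 7.79% to 8.32% in the others.

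The gene pair on chromosome 9 had fewer transcripts in enhancer KO. Zic1, the most abundant Zic gene here, had 321, 314 and 354 CPM in the enhancer KO libraries, against 407, 507 and 503 CPM in the WT libraries. Its levels did not overlap between the groups, and WT replicate 1 was the WT library nearest to enhancer KO. Zic1 averaged 330.0 ± 21.4 CPM in enhancer KO and 472 ± 56.8 CPM in WT (SD, n = 3 each). The log2 fold change was -0.52 with an SE of 0.0886 (edgeR adjusted p = 0.00301), and the level fell by 30.1%. Zic4, transcribed from the opposite strand beside Zic1, had 21.5, 22.4 and 21.8 CPM in the enhancer KO libraries, against 24.9, 31.2 and 31.5 CPM in the WT libraries. Again no enhancer KO library reached the lowest WT library, replicate 1. Zic4 averaged 21.9 ± 0.429 CPM in enhancer KO and 29.2 ± 3.71 CPM in WT (SD, n = 3 each). It fell by 0.41 on the log2 scale, with an SE of 0.0849 (edgeR adjusted p = 0.00347).

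On chromosome 14 only Zic2 passed the test. Zic2 had 124, 119.8 and 128 CPM in the enhancer KO libraries, against 160.1, 187 and 198 CPM in the WT libraries, and the groups did not overlap. It averaged 124 ± 4.25 CPM in enhancer KO and 182 ± 19.6 CPM in WT (SD, n = 3 each). Zic2 fell by 0.55 on the log2 scale, with an SE of 0.0716 (edgeR adjusted p = 0.000458), and this change lay within 1 SE of that of Zic1. Zic5, a gene that in mice is needed for neural tube closure and neural crest development, had 15.7, 13.4 and 15.0 CPM in the enhancer KO libraries, against 14.2, 14.7 and 18.3 CPM in the WT libraries. The groups overlapped, and WT replicate 3 was the highest of all libraries. Zic5 averaged 14.7 ± 1.19 CPM in enhancer KO and 15.7 ± 2.20 CPM in WT (SD, n = 3 each). On the log2 scale the difference was -0.10 with an SE of 0.102 (edgeR adjusted p = 0.497). The 95% interval of that change ran from -0.32 to 0.12, so changes anywhere between these bounds were not distinguishable at this replication. The interval for Zic2 ran from -0.71 to -0.39, that for Zic1 from -0.72 to -0.31 and that for Zic4 from -0.60 to -0.23. Those for Zic1 and Zic4 overlapped that of Zic5. In bulk tissue, fewer cells of a type and less RNA per cell cannot be told apart.

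**Figure D1:**
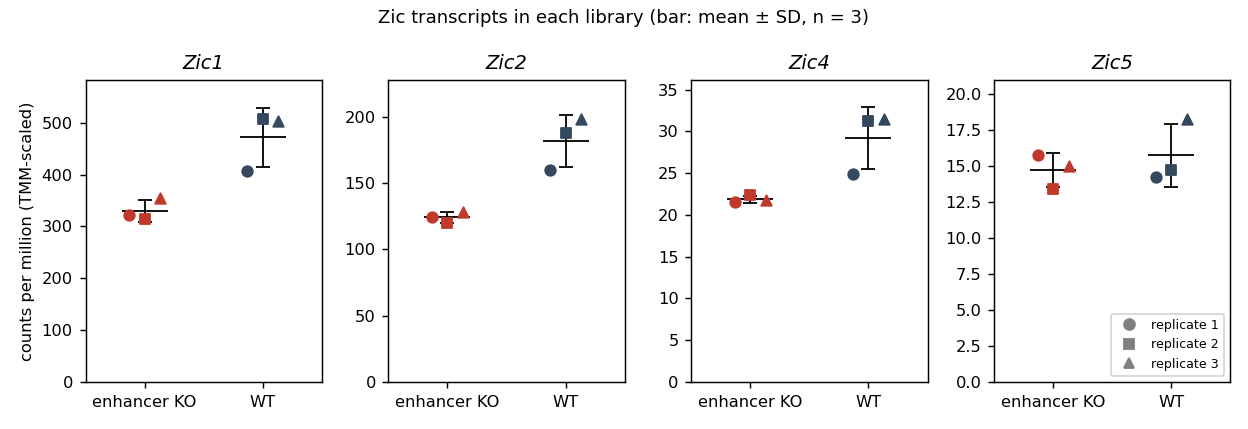
TMM-scaled CPM of Zic1, Zic2, Zic4 and Zic5 (vertical axes from 0, 1 scale per gene) in the enhancer KO and WT libraries, with a marker shape per replicate and bars for the mean ± SD (n = 3). Zic1, Zic2 and Zic4 lie lower in every enhancer KO library than in any WT library, while Zic5 overlaps between 13.4 and 15.7 CPM in enhancer KO and 14.2 and 18.3 CPM in WT.

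Of the 4 Zic genes, all passed the filter on low counts, 3 were called lower and 0 higher. Over all 15846 genes tested, 17.9% were called lower and 13.4% higher at an edgeR adjusted p under 0.05, 2844 and 2120 genes (1689 and 2165 with scaling by library size alone). Enhancer KO levels lay entirely below WT for the same 3 Zic genes and entirely above for 0, against 24.3% below and 20.5% above of all genes tested. The log2 fold changes of Zic2, Zic1, Zic4 and Zic5 were undercut by 6.92%, 7.60%, 10.9% and 34.3% of all genes, whose median was 0.00059. The Zic genes together took 0.0493%, 0.0483% and 0.0530% of gene reads in the enhancer KO libraries, against 0.0616%, 0.0664% and 0.0767% in the WT libraries. That share did not overlap between the groups (exact two-sided permutation p = 0.1, the smallest that 3 against 3 libraries can give).

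**Figure D2:**
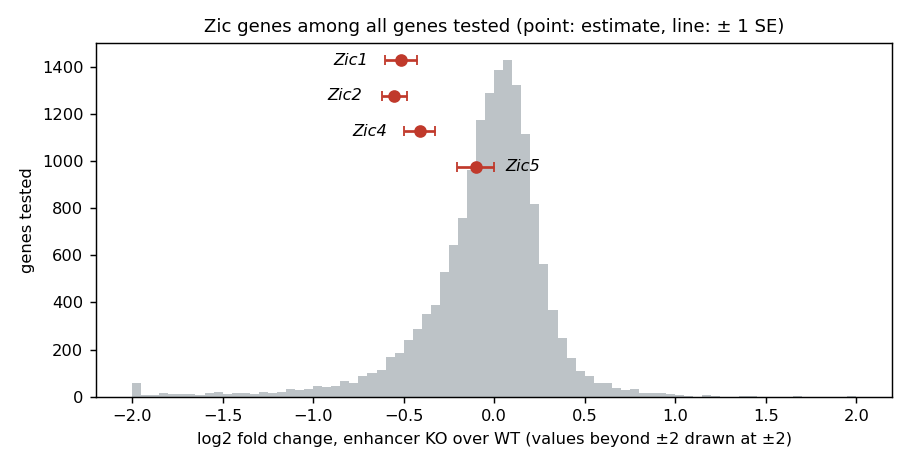
Histogram of log2 fold changes (enhancer KO over WT, horizontal axis) of the 15846 genes tested (number of genes, vertical axis), with the Zic genes as points and lines of ± 1 SE at arbitrary heights. Zic1, Zic2 and Zic4 lie in the lower tail at -0.52, -0.55 and -0.41, and Zic5 at -0.10 near the centre.

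Ratios of read counts within a library do not depend on how libraries are scaled, and that of Zic5 to Zic2 did not overlap between the groups. The log2 ratio of Zic5 to Zic2 was -2.98, -3.16 and -3.09 in the enhancer KO libraries, against -3.49, -3.67 and -3.44 in the WT libraries. Each enhancer KO library held more Zic5 relative to Zic2 than any WT library, with a mean difference of 0.46 (enhancer KO minus WT; exact two-sided permutation p = 0.1, the smallest possible here). The log2 ratio of Zic4 to Zic1 was -3.90, -3.81 and -4.02 in enhancer KO, against -4.03, -4.02 and -4.00 in WT. These overlapped, with a mean difference of 0.10 (exact two-sided permutation p = 0.3). Leaving out 1 library at a time put the difference between 0.0545 (enhancer KO replicate 2 removed) and 0.161 (enhancer KO replicate 3 removed, where the groups did not overlap). In ratios added after the values were seen, Zic5 to Zic1 differed by 0.42 without overlap (exact two-sided permutation p = 0.1) and Zic2 to Zic1 by -0.03 with overlap (exact two-sided permutation p = 0.5). These are 4 ratios of 4 genes and are not independent of each other. The log2 fold changes of Zic1, Zic2 and Zic5 were -0.52, -0.55 and -0.10, and the Zic5 ratios restate those changes. How many other genes separate the groups in such ratios was not counted.

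**Figure D3:**
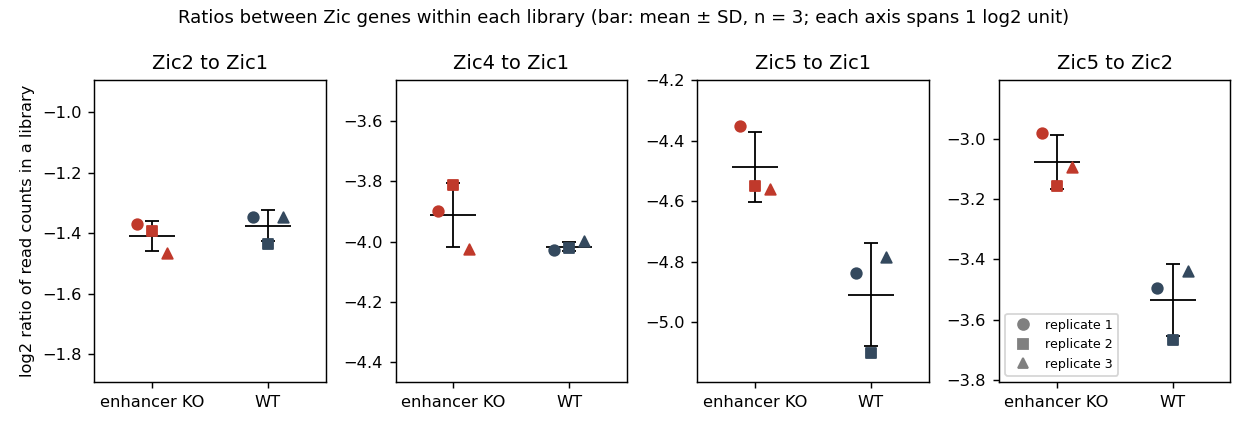
Log2 ratios of read counts between pairs of Zic genes (vertical axes, each spanning 1 log2 unit) in the enhancer KO and WT libraries, with a marker shape per replicate and bars for the mean ± SD (n = 3). The ratios of Zic5 to Zic1 and of Zic5 to Zic2 are higher in all enhancer KO libraries, by means of 0.42 and 0.46, and the other ratios overlap.

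Zic1 made up 67.2% ± 0.885 of the reads of the 4 genes in enhancer KO and 67.5% ± 0.817 in WT (SD, n = 3 each), and Zic2 25.3% ± 0.545 in enhancer KO and 26.04% ± 0.624 in WT (SD, n = 3 each). Zic5 made up 3.003% ± 0.222 in enhancer KO and 2.26% ± 0.233 in WT (SD, n = 3 each). Per kilobase of the longest coding transcript, Zic1 averaged 58.9 ± 3.82 CPM per kb in enhancer KO and 84.2 ± 10.1 CPM per kb in WT, followed by Zic2 with 50.9 ± 1.74 CPM per kb in enhancer KO and 74.5 ± 8.03 CPM per kb in WT (SD, n = 3 each). Within every library Zic1 was above Zic2 per kb, on this length and over all annotated exons merged. In the WT libraries Zic1 had 72.5, 90.4 and 89.8 CPM per kb on this length, against 65.6, 76.8 and 81.2 for Zic2. Across libraries the ranges of the genes overlapped on this length in WT and not in enhancer KO. Over all annotated exons merged they overlapped in neither group. Zic4 came next with 5.63 ± 0.110 CPM per kb in enhancer KO and 7.50 ± 0.953 CPM per kb in WT, above Zic5 with 3.09 ± 0.249 and 3.302 ± 0.461 CPM per kb (enhancer KO, then WT; SD, n = 3 each). The order of Zic4 and Zic5 depended on the transcript model. Over all annotated exons merged, Zic4 had 2.12 ± 0.0415 CPM per kb in enhancer KO, below the 3.01 ± 0.243 CPM per kb of Zic5 in the same group (SD, n = 3 each). In WT Zic4 averaged 2.82 ± 0.359 and Zic5 3.22 ± 0.450 CPM per kb on that length (SD, n = 3 each). Those WT ranges overlapped, and in WT replicate 2 Zic4 (3.020) was not below Zic5 (3.017). The annotation used for the deposited counts is not given in the sources used here, so these levels per length are approximate.

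Other genes of the granule neuron lineage were lower in the same libraries. The gene lists here and below were chosen with earlier results of these data known, so counts and ratios from them are a description only. Of 18 granule neuron markers, 14 were called lower and 1 higher, with a median log2 fold change of -0.62, against 17.9% lower and a median of 0.00059 over all genes. The extracellular protein gene Reln averaged 189 ± 8.87 CPM in enhancer KO and 322 ± 17.8 CPM in WT (SD, n = 3 each; edgeR adjusted p = 1.36e-06). On the log2 scale the exchange factor gene Tiam1 fell by 0.45, the neuronal splicing regulator gene Rbfox3 fell by 0.42 and the potassium channel gene Kcnd2 fell by 0.47. Without enhancer KO replicate 1, 9 markers were lower. Summed marker levels were 3063, 2948 and 3652 CPM in enhancer KO, against 4227, 4865 and 4693 CPM in WT. The log2 ratio of the summed Zic reads to the summed marker reads was -2.67, -2.65 and -2.81 in enhancer KO, against -2.80, -2.72 and -2.64 in WT. These values overlapped, with a mean difference of 0.01 (exact two-sided permutation p = 1). A ratio for Zic5 alone was added after the values were seen. The log2 ratio of Zic5 to the markers was -7.60, -7.78 and -7.92 in enhancer KO, against -8.22, -8.37 and -8.01 in WT. The groups did not overlap (exact two-sided permutation p = 0.1). That ratio restates the fall of the markers beside the smaller change of Zic5.

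Of 24 transcription factors and chromatin regulators of the same lineage, 23 were tested, and 11 were called lower and 3 higher, against 17.9% lower and 13.4% higher over all genes. Their median log2 fold change was -0.26. The chromatin remodeller gene Chd7 fell by 0.74 on the log2 scale (edgeR adjusted p = 2.64e-05), the engrailed gene En2 fell by 0.56, the homeobox gene Meis1 fell by 0.38 and the zinc finger gene Zfp521 fell by 0.35. Without enhancer KO replicate 1 or without enhancer KO replicate 2, 6 were called lower. None of the 6 Gli and Glis genes, the closest relatives of the Zic genes by zinc finger, passed edgeR's test with all libraries (1 was lower at an unadjusted p under 0.05, and DESeq2 and limma-voom called 0). Gli3, mainly a repressor of hedgehog targets, averaged 19.3 ± 1.31 CPM in enhancer KO and 17.3 ± 0.890 CPM in WT (SD, n = 3 each; edgeR adjusted p = 0.133), without overlap. Glis2 averaged 22.04 ± 1.86 CPM in enhancer KO and 22.6 ± 0.941 CPM in WT (SD, n = 3 each; edgeR adjusted p = 0.731). Without WT replicate 1, 1 Gli or Glis gene was called lower, and without enhancer KO replicate 3, 1 was called higher. Of 11 other hedgehog pathway genes, 3 were called lower and 3 higher, which with so few genes is near the shares over all genes. On the log2 scale the co-receptor gene Boc fell by 0.65 and the co-receptor gene Cdon fell by 0.44, while the signal transducer gene Smo rose by 0.39 and the co-receptor gene Gas1 rose by 0.42 (edgeR adjusted p from 2.42e-05 to 0.00208).

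**Figure D4:**
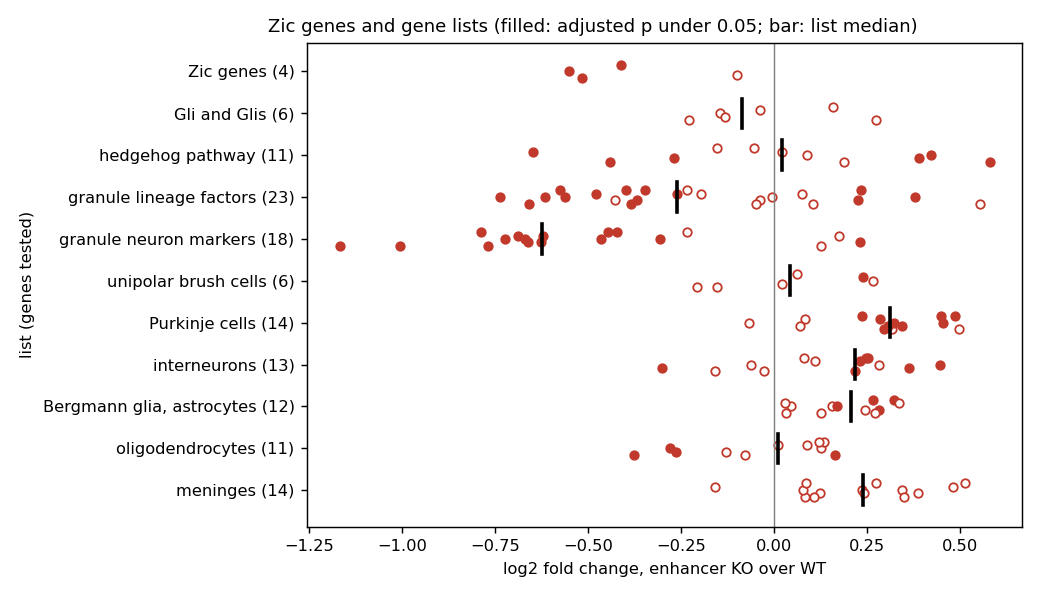
Log2 fold changes (enhancer KO over WT, horizontal axis) of the Zic genes and of the members of 10 gene lists, with filled points for an edgeR adjusted p under 0.05, open points for the rest and black bars at list medians. Zic1, Zic2 and Zic4 are filled and Zic5 is open, and each is less negative than the granule neuron marker median of -0.62.

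Against the same 17.9% lower and 13.4% higher over all genes, markers of Purkinje cells, interneurons and Bergmann glia were called higher more often than lower. Of 14 Purkinje cell genes 9 were higher and 0 lower, of 13 interneuron genes 6 higher and 1 lower, and of 12 Bergmann glia and astrocyte genes 4 higher and 0 lower. Summed Purkinje levels were 8200 to 8574 CPM in enhancer KO and 6010 to 7056 CPM in WT. Oligodendrocyte genes (1 of 11 higher and 3 lower) and unipolar brush cell genes (1 of 6 higher) were near the shares over all genes. Leaving out 1 library at a time gave 0 to 4 oligodendrocyte genes higher (0 without enhancer KO replicate 2, WT replicate 1 or WT replicate 3, and 4 without WT replicate 2), and 0 unipolar brush cell genes without enhancer KO replicate 1. None of the 14 meningeal genes was called by edgeR with all libraries (0 at an unadjusted p under 0.05, and 0 by DESeq2 and limma-voom), and 8 were higher without enhancer KO replicate 3. Their summed levels were 559.9 to 974 CPM in enhancer KO and 606 to 855 CPM in WT, overlapping between the groups. Of 10 midbrain genes tested, 1 was called higher, the dopamine synthesis enzyme gene Th, and 5 were higher without WT replicate 1 and 2 without enhancer KO replicate 3. Midbrain genes summed to 47.7 to 60.9 CPM in enhancer KO and 39.9 to 56.1 CPM in WT, with WT replicate 1 the highest WT library. With Rn45s left out of the library sizes, Zic1, Zic2 and Zic4 were at -0.50, -0.53 and -0.39 and were called lower, and Zic5 was at -0.08. The part of the cell type markers and of the reads outside exons in the Zic values was not tested.

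Zic1, Zic2 and Zic4 varied together across the 6 libraries. Pearson correlations of log2 CPM were 0.988 for Zic1 with Zic2, 0.968 for Zic1 with Zic4 and 0.970 for Zic2 with Zic4, and 0.494 to 0.544 for Zic5 with each of them. With group means removed the values were 0.942, 0.853 and 0.890 in the same order, and 0.463 to 0.758 for Zic5. The correlations are a description only, since all of them rest on the same 6 libraries, and Zic1, Zic2 and Zic4 share the group difference and a lowest WT level in replicate 1. Of 10306 genes with a mean of at least 10 CPM, 10.6% correlated with Zic1, 12.2% with Zic2, 6.22% with Zic4 and 0.184% with Zic5 at 0.9 or more. The profiles most like Zic1 were those of Ctns, the GABA-A receptor gene Gabrd and Zkscan8 (0.997, 0.996 and 0.995), and those most like Zic2 were Mplkip, Mterf3 and Setbp1 (each 0.997). Those most like Zic4 were Aco1, Mamld1 and Zfp777 (0.995, 0.995 and 0.994), and those most like Zic5 were March11, Ube3b and the nuclear factor I gene Nfix (0.985, 0.979 and 0.977). With group means removed the closest profiles included those of Sestd1, Etfdh and Setd2 for Zic1, Chsy1, Echs1 and Elmo2 for Zic2, Cdkn1a and Serf2 for Zic4, and Ube3b and Hk2 for Zic5 (0.994 to 0.999).

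Reads on the strand opposite to each gene were a small share except at Zic5. At Zic5 they made up 9.06%, 8.19% and 8.20% of its stranded reads in the enhancer KO libraries, against 10.3%, 9.04% and 6.94% in the WT libraries, which overlapped (exact two-sided permutation p = 0.9). The share of reads pooled over all genes was 1.62% to 1.70% in enhancer KO and 1.76% to 1.88% in WT. Zic5 lay above this pooled share in every library. How many other genes with as few reads did so was not counted. At Zic1, Zic2 and Zic4 the shares averaged 0.466%, 0.176% and 1.31% in enhancer KO, against 0.462%, 0.108% and 1.70% in WT, and overlapped in each case (exact two-sided permutation p = 0.9, 0.3 and 0.3). In the gap between Zic5 and Zic2 lies 2610035F20Rik, annotated on the minus strand at chr14:122470284-122475199. It had 48, 35 and 52 reads on the counted strand in enhancer KO and 49, 45 and 49 in WT, but 358, 312 and 391 reads on the opposite strand in enhancer KO and 328, 214 and 434 in WT. Scaled like the other genes, the opposite-strand reads came to 9.52, 8.11 and 9.38 CPM in enhancer KO, against 10.1, 10.5 and 12.8 CPM in WT, without overlap (exact two-sided permutation p = 0.1, chosen after its values were seen). The strand of this gene in the annotation behind the deposited counts is not given in the sources used here.

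Genes flanking the pairs gave no single pattern. On chromosome 14 the metabolic enzyme gene Clybl, 54560 bases from Zic5, averaged 17.2 ± 1.03 CPM in enhancer KO and 17.7 ± 2.34 CPM in WT (SD, n = 3 each; edgeR adjusted p = 0.804). Pcca, a subunit gene of propionyl-CoA carboxylase 54471 bases beyond Zic2, fell to 36.4 ± 1.72 CPM in enhancer KO, against 46.6 ± 4.93 CPM in WT (SD, n = 3 each; edgeR adjusted p = 0.00398), and was not called without both WT replicates 2 and 3. On chromosome 9 the nearest counted genes were far off. Tbc1d2b, 1087253 bases from Zic1, averaged 23.5 ± 0.813 CPM in enhancer KO and 24.7 ± 3.16 CPM in WT (SD, n = 3 each; edgeR adjusted p = 0.535), and Plscr5 beyond Zic4 had 6, 10 and 18 reads in enhancer KO and 9, 7 and 12 in WT.

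The differences of Zic1, Zic2 and Zic4 were smaller against WT replicate 1 than against the other WT libraries. Leaving out any single library kept Zic1, Zic2 and Zic4 called lower, with log2 fold changes from -0.61 to -0.45 for Zic1, -0.64 to -0.48 for Zic2 and -0.52 to -0.35 for Zic4. Without WT replicate 1, the library with high Xist, the remaining libraries all had Ddx3y reads and these genes were at -0.61, -0.64 and -0.52. With WT replicate 1 as the lone WT library, whose spread is then taken to equal that within enhancer KO, Zic1 was at -0.28 and Zic2 at -0.34 (edgeR adjusted p = 0.0183 and 0.00163). Zic4 was then at -0.16 and was not called. The Xist and Ddx3y difference and the genotype cannot be told apart in that fit. Zic5 was called in none of the 17 alternatives.

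**Figure D5:**
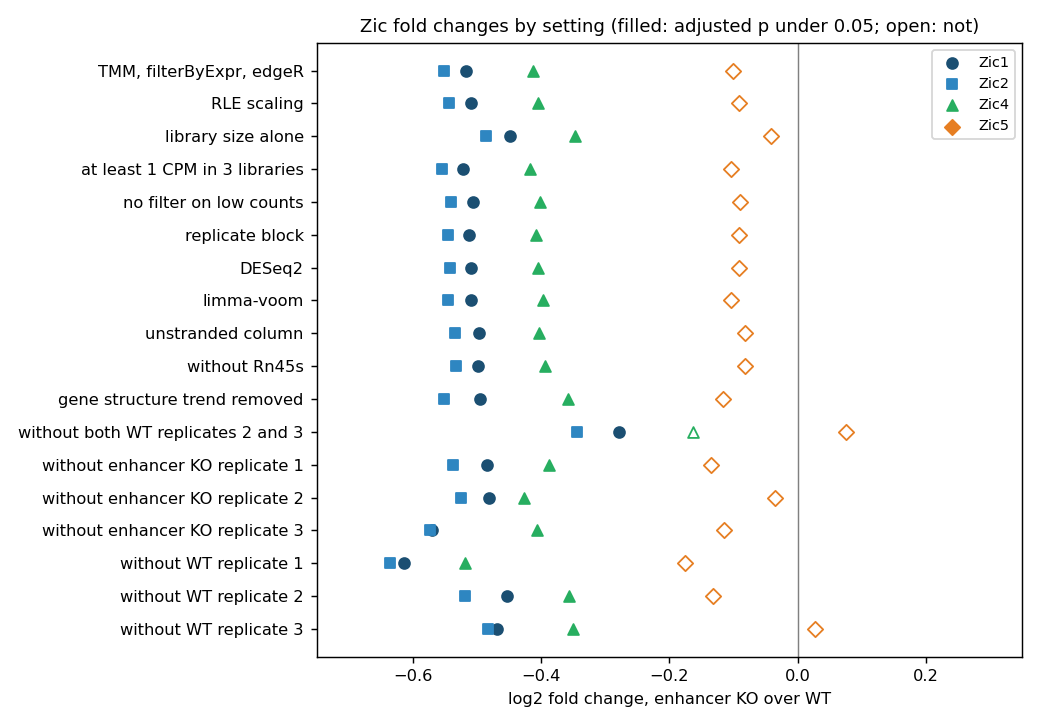
Log2 fold changes (enhancer KO over WT, horizontal axis) of the Zic genes under the setting reported (top) and 17 alternatives, with filled markers for an adjusted p under 0.05. Zic1 and Zic2 are filled throughout, Zic4 is open only without both WT replicates 2 and 3, and Zic5 is open throughout, between -0.18 and 0.07.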

How the data were processed

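RNA-seq reads were trimmed with Trimmomatic and aligned with STAR to mm10, per the submitters' processing notes; the sources used here give no versions, settings or annotation. What the authors deposited are STAR's raw counts of reads per gene, unstranded and for each strand. Column 4, the strand with most reads, was used, and the 4 rows that name no gene (unmapped, multimapping, outside exons, ambiguous) entered neither library sizes nor tests.

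The filterByExpr function of edgeR 4.0.16 (R 4.3.3) kept 15846 of 24411 genes, and libraries were scaled by TMM. Groups were compared with edgeR's quasi-likelihood test (robust, two-sided), and p-values were adjusted by Benjamini-Hochberg over every gene that passed the filter, with a threshold of 0.05. SE came from the fold change and the F statistic, and 95% intervals from the t distribution on the fit's degrees of freedom. The fit was tested on simulated data. Single values were compared by exact permutation over libraries. Positions came from GENCODE release M21 (23334 symbols matched). Profile likeness used Pearson's r of log2 CPM with a prior count of 2. Genes named were the 4 Zic genes, Atoh7, flanking genes, the 3 nearest profiles per gene (some are not reported here), and, in the granule, Gli and hedgehog lists, up to 4 members with the smallest p or the 2 most abundant. Members and lists were chosen with earlier results of these data known. DESeq2 1.42.0, limma-voom (limma 3.58.1) and a trend over gene structure removed with mgcv 1.9.3 were among the alternatives.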

Additional observations from a re-analysis of the deposited data

How the results depend on the processing

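Directions and calls of Zic1 and Zic2 held under all 17 alternatives, and those of Zic4 under 16. Without both WT replicates 2 and 3, Zic4 was at -0.163 (edgeR adjusted p = 0.210) and Zic5 at 0.0746, and 3129 genes were called, 1640 of them lower; fewer samples enter that fit. With library size alone 1689 genes were lower, the median of all genes moved to 0.0628 and Clybl and Glis2 to 0.0296 and 0.0217; the cause was not tested. Clybl was at 0.165 without both WT replicates 2 and 3. Leaving out 1 library at a time gave 3652 to 4924 genes called, 1420 to 2214 of them higher and 2181 to 2710 lower, and put Zic5 between -0.176 and 0.0266, positive only without WT replicate 3. It put Clybl between -0.122 and 0.0696, Tbc1d2b between -0.154 and 0.0110 and Glis2 between -0.0875 and 0.0293. The difference of the Zic sum relative to granule markers ran from -0.0295 to 0.0633, and that of the opposite-strand share from -0.0180 to 0.0393 percentage points at Zic1 and from -1.19 to 0.495 at Zic5. Pcca was not called without both WT replicates 2 and 3 (edgeR adjusted p = 0.184), and 2610035F20Rik was called lower in the unstranded column (0.0173). In the same fit without WT replicates 2 and 3, 5 granule neuron markers and 4 granule lineage factors were lower. DESeq2 called 7 of the Bergmann glia and astrocyte genes and 4 of the oligodendrocyte genes higher.

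Replicate numbers shared by the groups gave no sign of pairing. Deviations from the group means correlated at 0.0526, -0.0386 and -0.0795 for numbers 1, 2 and 3. Libraries with unlike numbers correlated at -0.103 to 0.118. With 3 libraries per group these values cannot exclude pairing. With the replicate number as a block, 4596 genes were called and Zic1, Zic2, Zic4 and Zic5 were at -0.512, -0.546, -0.408 and -0.0913. Of the Zic genes, Zic5 had the fewest reads, with 516 to 627 per enhancer KO library and 302 to 617 per WT library.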
